A study of Homo sapiens with 4 samples.

Results

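To describe c-MYC at the genes of respiratory complex I, all protein-coding genes of GENCODE whose symbol begins with NDUF were taken, without read-through genes, giving 47 of 19336 protein-coding genes. A gene was counted as having a promoter peak where a peak summit was at most 1 kb from any of its protein-coding transcription start sites (TSSs). The rule uses gene names and no measured value, although it was set with earlier results of these data known. The 47 genes comprised 3 core subunits of the N module, 4 core subunits of the Q module, 30 supernumerary subunits, 8 assembly factors named NDUFAF and 2 genes, NDUFA4 and NDUFA4L2, that share the name but are not counted as complex I subunits here.

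Complex I is the entry point of the mitochondrial respiratory chain. It oxidizes NADH, passes the electrons through a chain of iron-sulfur clusters to ubiquinone and pumps protons across the inner mitochondrial membrane. Its N module takes up NADH, its Q module reduces ubiquinone and its membrane arm pumps protons. The core subunits of the membrane arm are encoded by mitochondrial DNA, and the nuclear genome supplies the remaining core subunits, the supernumerary subunits that surround the core and the assembly factors that build the enzyme and then leave it. c-MYC is a transcription factor that pairs with MAX, binds the E-box CACGTG and related sequences, and is known for binding promoters of growth, ribosome and mitochondrial genes.

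Binding was measured by ChIP-seq, in which an antibody pulls down DNA fragments bound by a protein and places of fragment pileup are called as peaks. MIA PaCa-2, an established human pancreatic ductal adenocarcinoma (PDAC) line, was given DMSO, the inhibitor AMG510 at 100 nM or the MEK inhibitor trametinib at 10 nM for 8 h. A c-MYC antibody was used once under each of the 3 treatments and non-specific IgG was used once, in DMSO-treated cells. Each of the 4 groups was thus 1 library of a single cell line, every difference below is between single libraries without a replicate check, and no test was made. The peak lists hold no expression values, so the identity of the line was not checked against marker genes.

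The libraries were of similar depth. The values in the lists gave back 22700000 tags in peak calling for IgG, 24000000 in DMSO, 24300000 in AMG510 and 24800000 in trametinib (each c-MYC). The lists held 2966, 9552, 10378 and 5431 peaks, respectively, with a median of 10 to 13 tags at the summit. Intervals given below are exact 95% Poisson or binomial intervals. They cover counting error only and are too narrow, because a pair of mates from a single fragment may enter as separate tags. Ratios of pileups below are divided by the tags in calling only. Peak calling extends each tag, and a longer extension raises a pileup. The extension, read from the shortest peak width, was 177 bp in DMSO, 157 bp in AMG510 and 163 bp in trametinib. The ratios to DMSO are not corrected for this and lean low.

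The sequences at or near the DMSO c-MYC summits are shown first. Several drug summits, among them those of NDUFB2 and NDUFAF2, lay outside the stretches shown. The NDUFAF4 stretch does not reach its DMSO summit. They are shown for members with a peak in at least 2 c-MYC lists or with a canonical E-box within 100 bp of the DMSO summit. Each reads 5′ to 3′ on the strand of the complex I gene, and capitals mark the canonical E-box CACGTG and the noncanonical E-box CACGCG, which reads CGCGTG on the opposite strand. NDUFS1, NDUFA11 and NDUFS7 are shown with 100 bp on each side of the summit and hold a canonical E-box, which in NDUFS1 and NDUFA11 lies near the middle.
NDUFS1 (GRCh38, chr2:206159998-206160198, minus strand): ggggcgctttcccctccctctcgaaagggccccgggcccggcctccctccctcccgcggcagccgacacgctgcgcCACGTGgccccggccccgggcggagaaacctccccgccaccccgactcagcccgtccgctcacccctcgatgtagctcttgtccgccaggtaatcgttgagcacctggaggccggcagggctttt
NDUFA11 (GRCh38, chr19:5903799-5903999, minus strand): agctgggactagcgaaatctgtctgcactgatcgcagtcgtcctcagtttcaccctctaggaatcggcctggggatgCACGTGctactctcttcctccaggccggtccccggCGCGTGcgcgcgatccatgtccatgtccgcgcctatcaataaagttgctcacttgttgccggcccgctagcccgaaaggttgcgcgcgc
NDUFS7 (GRCh38, chr19:1383707-1383907, plus strand): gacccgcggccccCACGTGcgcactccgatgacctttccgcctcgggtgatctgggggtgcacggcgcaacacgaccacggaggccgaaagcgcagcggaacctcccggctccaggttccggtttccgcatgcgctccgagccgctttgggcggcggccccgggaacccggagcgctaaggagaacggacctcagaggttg

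The assembly factors NDUFAF2 and NDUFAF4 also held a canonical E-box. Because their summits lay in the 5′ untranslated region, the stretch shown for NDUFAF2 starts 9 bases before the summit and that for NDUFAF4 is 30 bases around the E-box, which ended 40 bp from the summit.
NDUFAF2 (GRCh38, chr5:60945226-60945335, plus strand): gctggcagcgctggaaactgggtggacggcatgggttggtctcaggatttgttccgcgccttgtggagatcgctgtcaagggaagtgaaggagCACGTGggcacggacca
NDUFAF4 (GRCh38, chr6:96897824-96897853, minus strand): cgccggtgttccCACGTGcggcctgaacct

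NDUFB2 and NDUFAF8 held only the noncanonical form within 100 bp of the DMSO summit, and NDUFB1 held neither. NDUFB2 had CACGCG on each strand overlapping as an unbroken run near the end of the window, and a further copy near its start. The DMSO summits of NDUFAF5 and NDUFC1 had neither E-box within 100 bp and lay in or beside an untranslated stretch, which is not printed. No sequence is printed for NDUFAF6, which also held a canonical E-box.
NDUFB2 (GRCh38, chr7:140696943-140697143, plus strand): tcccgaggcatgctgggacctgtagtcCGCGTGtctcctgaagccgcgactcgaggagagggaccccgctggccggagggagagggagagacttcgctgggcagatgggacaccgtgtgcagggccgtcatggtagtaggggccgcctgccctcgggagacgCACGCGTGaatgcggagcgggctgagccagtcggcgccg
NDUFAF8 (GRCh38, chr17:81239334-81239534, plus strand): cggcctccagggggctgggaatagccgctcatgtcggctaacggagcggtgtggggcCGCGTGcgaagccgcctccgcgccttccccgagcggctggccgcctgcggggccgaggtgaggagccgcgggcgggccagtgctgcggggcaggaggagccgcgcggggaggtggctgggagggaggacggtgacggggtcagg
NDUFB1 (GRCh38, chr14:92122191-92122251, minus strand): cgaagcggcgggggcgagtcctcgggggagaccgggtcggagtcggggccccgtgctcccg

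The first comparison asked at how many complex I genes c-MYC was found in each library. In the DMSO c-MYC library 15 of 47 genes (31.9%) had a promoter peak, against 24.3% of all protein-coding genes. The AMG510 library had 9 (19.1%, against 15.4%), the trametinib library 4 (8.51%, against 11.8%) and the IgG library 0 (against 0.569%). The share of complex I genes was thus above that of all genes by a few percentage points in DMSO and AMG510 and below it in trametinib. In all, 16 genes (34%) had a promoter peak in at least 1 c-MYC list, against 31.8% of all genes, so by this count the complex I genes stood near the background. With a fold enrichment above 5, 11 genes were left in DMSO (23.4%, against 12.2%), 3 in AMG510 (6.38%, against 5.77%) and 3 in trametinib (6.38%, against 4.88%). The DMSO share then stood further above that of all genes, and trametinib stood above all genes as well. Taking an equal number of peaks from each c-MYC list left 13 genes in DMSO (27.7%, against 18.2%). When each peak was counted only for the gene with the nearest TSS, 5 genes were left in AMG510 (10.6%, against 13.8%) and 11 in DMSO (23.4%, against 21.9%), which put AMG510 below all genes.

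**Figure D1:**
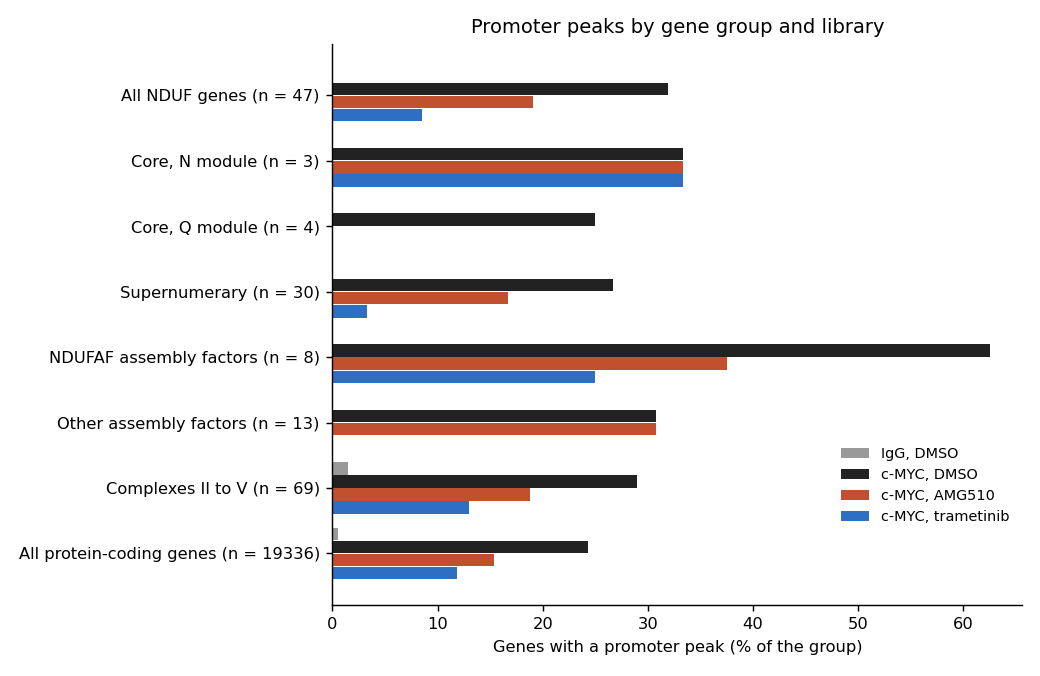
Percentage of genes with a promoter peak (horizontal axis) for each group of genes (n in brackets), with 1 bar per library. All NDUF genes stand at 31.9% in DMSO c-MYC beside 24.3% of all protein-coding genes, and the NDUFAF assembly factors at 62.5%. That is 5 of 8 genes, counting NDUFAF6, whose peaks lie at an upstream TSS and not at the canonical one.

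By role among the NDUF genes, the NDUFAF assembly factors had the most promoter peaks for their number in DMSO and AMG510. In DMSO, 5 of 8 NDUFAF genes (62.5%, against 24.3% of all protein-coding genes) had one, namely NDUFAF2, NDUFAF4, NDUFAF5, NDUFAF6 and NDUFAF8. Of the supernumerary subunits, 8 of 30 (26.7%) had one. Of the core subunits, 1 of 3 in the N module (NDUFS1) and 1 of 4 in the Q module (NDUFS7) had one, and neither NDUFA4 nor NDUFA4L2 did. With 8 genes, a single gene moves the share of the NDUFAF group by more than 10 percentage points. The NDUFAF6 peaks lay at an upstream TSS and not at the canonical one. Of the NDUFAF genes with a DMSO peak, only NDUFAF4 had one not shared with a neighbour. Under AMG510 the counts were 3 of 8 assembly factors (37.5%), 5 of 30 supernumerary subunits (16.7%) and 1 of 7 core subunits, against 15.4% of all protein-coding genes. Under trametinib they were 2 (25%), 1 (3.33%) and 1, against 11.8%, the last being NDUFS1 of the 3 core N module genes.

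Other genes of the pathway gave a scale for these counts. Of 13 complex I assembly factors without an NDUF symbol, DMSO and AMG510 each showed promoter peaks at 4 (30.8%) and trametinib at 0. The high share of the NDUFAF genes in DMSO was thus not seen in these other assembly factors. In DMSO these were ACAD9 and TMEM186, which act in the assembly of the membrane arm, NUBPL, which delivers iron-sulfur clusters, and DMAC1, and under AMG510 ECSIT took the place of TMEM186. Promoter peaks were found at 20 of 69 genes of complexes II to V and their assembly under DMSO (29%), at 13 under AMG510 (18.8%), at 9 under trametinib (13%) and at 1 with IgG. These shares lay within 5 percentage points of the shares of complex I genes in each list.

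The strongest peak was at NDUFS1, the largest subunit of the N module, which carries iron-sulfur clusters. In DMSO its summit held 39 tags (interval 27.7 to 53.3) over a background of 3.10 tags, a fold enrichment of 9.76, which is (pileup + 1) over (background + 1). In AMG510 the pileup was 20 tags (12.2 to 30.9) with a fold enrichment of 6.44, and in trametinib 20 tags (12.2 to 30.9) with 7.35. The peak ranked 144 of 9552 by fold enrichment in DMSO, 443 of 10378 in AMG510 and 214 of 5431 in trametinib, so that over 95% of each list lay below it. Per tag in calling, the log2 ratio to DMSO was −0.98 in AMG510 (interval −1.84 to −0.17) and −1.01 in trametinib (−1.87 to −0.20). Both drug pileups were thus lower than that of DMSO, with intervals that end near 0 and are too narrow where mates were counted separately, so that a difference beyond counting error is not shown. The peak stood near the top of each list. The summits of the 3 lists lay within 43 bp of the DMSO summit, and the canonical E-box printed above ended 19 bp from the DMSO summit, 44 bp from the AMG510 summit and 62 bp from the trametinib summit. The summit was 589 bp upstream of the nearest NDUFS1 TSS but 203 bp from that of EEF1B2, a translation elongation factor gene on the opposite strand, and which of the genes the binding belongs to cannot be told apart.

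NDUFS7, the Q module subunit that holds the last iron-sulfur cluster before ubiquinone, had a peak only in the DMSO list. It held 18 tags (10.7 to 28.4), a fold enrichment of 5.03, and its summit was 93 bp upstream of the nearest TSS with no neighbour within 1 kb. The E-box lay 82 bp from the summit. NDUFV1, NDUFV2, NDUFS3 and NDUFS8, also core subunits, had no promoter peak in any list.

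Among the supernumerary subunits, NDUFB2, a small protein of the membrane arm, was the only one with a promoter peak in all 3 c-MYC lists. It held 38 tags in DMSO (26.9 to 52.2; fold enrichment 8.24), 11 in AMG510 (5.49 to 19.7; 3.42) and 19 in trametinib (11.4 to 29.7; 6.25). It ranked 338 of 9552 in DMSO, 9859 of 10378 in AMG510 and 435 of 5431 in trametinib. These ranks belong to summits called separately in lists of different lengths. The log2 ratio to DMSO was −1.81 in AMG510 (interval −2.92 to −0.81) and −1.05 in trametinib (−1.92 to −0.22). The AMG510 and trametinib peaks each overlapped the DMSO peak, with summits 217 and 241 bp away on opposite sides. NDUFB2 had 11 protein-coding start sites, and each summit lay within 54 bp of one of them. A canonical E-box lay 53 bp from the AMG510 summit.

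NDUFA11, a membrane-arm subunit, was the only gene whose overlapping peak held more tags under a drug than in DMSO. It had 17 tags in DMSO (9.9 to 27.2; fold enrichment 4.45) and 19 in AMG510 (11.4 to 29.7; 6.25) and no promoter peak in trametinib. The log2 ratio of the pileups was 0.14 with an interval of −0.88 to 1.18, so a difference was not detectable at this depth, although the fold enrichment ranked 496 of 10378 in AMG510 and 5333 of 9552 in DMSO. The DMSO background under the summit was 3.04 tags and that of AMG510 was lower. The E-box printed above ended 18 bp from the summit in both lists, and the TSS of VMAC lay 973 bp from the DMSO summit.

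NDUFB1 and NDUFC1, both small membrane-arm subunits, had promoter peaks in DMSO and AMG510. NDUFB1 had 13 tags (6.92 to 22.2; fold enrichment 4, rank 7210 of 9552) in DMSO and 15 (8.4 to 24.7; 4.84, rank 3146 of 10378) in AMG510, but these peaks did not overlap, being 14 bp apart. NDUFC1 had 17 tags in DMSO (9.9 to 27.2; fold enrichment 6.38, rank 1016) and 10 in AMG510 (4.8 to 18.4; 4.23, rank 6024). The NDUFC1 ratio of −0.78 on the log2 scale had an interval that holds 0. Both genes shared the peak with a neighbour whose TSS was nearer to the summit. In DMSO the summit lay 304 bp from NDUFB1 and 249 bp from CPSF2, a gene of mRNA 3′ end processing, and 524 bp from NDUFC1 and 146 bp from NAA15, a gene of protein N-terminal acetylation.

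The remaining supernumerary subunits had a peak in 1 list. NDUFAB1, the mitochondrial acyl carrier protein, which serves complex I and mitochondrial fatty acid synthesis, had 16 tags in DMSO (9.15 to 26) at the genome-wide background of 1.57 tags, a fold enrichment of 6.6 that ranked 852 of 9552. Its summit lay in intron 1, 160 bp from the nearest TSS, with no E-box of either form within 100 bp. NDUFA13, also known as GRIM-19, had 15 tags (fold enrichment 5.15), 101 bp upstream of its TSS and 576 bp from TSSK6. NDUFA6, which binds the acyl carrier protein, had 15 tags (5.6) in its first coding exon, 36 bp from the TSS. NDUFA2, of the N module, had 14 tags (3.95), nearer to the splicing gene IK than to its own TSS. All 4 were found in DMSO alone. NDUFA7, of the peripheral arm, was the single gene found under a drug and not in DMSO, with 14 tags in AMG510 (7.65 to 23.5; fold enrichment 4.45) and a canonical E-box 9 bp from the summit. That summit was 106 bp from NDUFA7 and 15 bp from RPS28, a gene of the small ribosomal subunit.

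**Figure D2:**
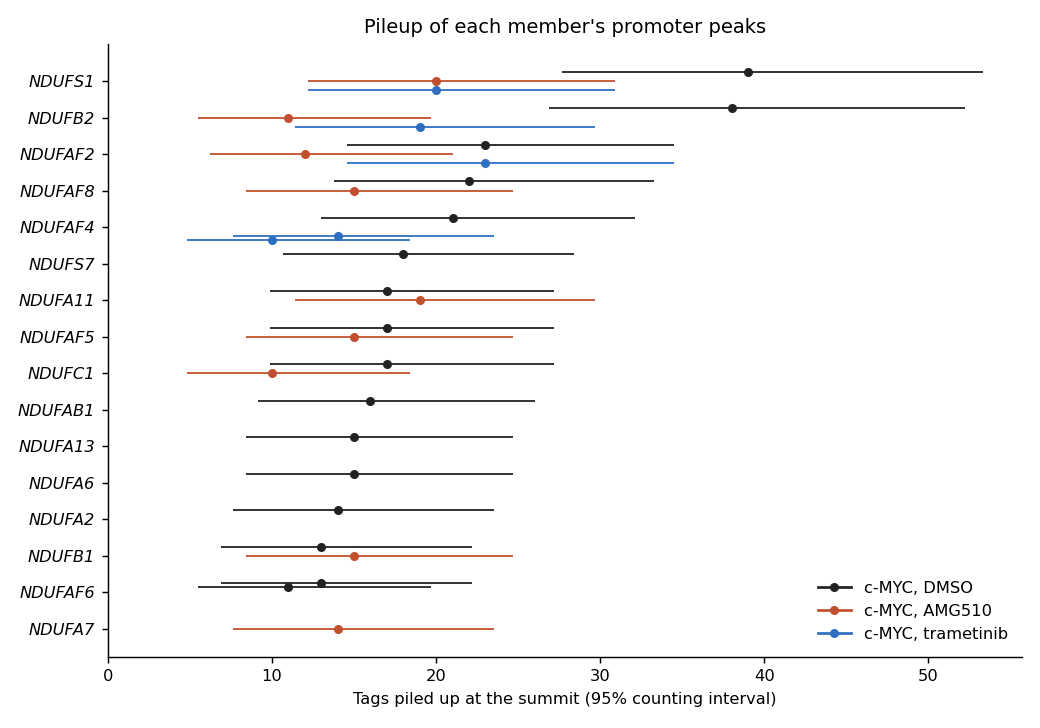
Tags at the summit of each promoter peak (horizontal axis) for the 16 genes with a peak, ordered by the DMSO value, with exact 95% Poisson intervals. NDUFS1 (39 tags) and NDUFB2 (38 tags) stand apart in DMSO, and every other peak holds 10 to 23 tags in every list.

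Among the assembly factors, NDUFAF2, which acts late in assembly, was found in all 3 c-MYC lists. Its pileup was 23 tags in DMSO (14.6 to 34.5; fold enrichment 5.5, rank 2005), 12 in AMG510 (6.2 to 21; 3.45, rank 9807) and 23 in trametinib (14.6 to 34.5; 6.45, rank 353). The trametinib value did not differ from DMSO beyond counting error (log2 ratio −0.05, interval −0.95 to 0.85), and neither did the AMG510 value (−0.96, −2.10 to 0.11). The DMSO summit was 12 bp from the TSS and 84 bp from the E-box, and the AMG510 and trametinib summits lay 365 and 254 bp downstream of it in intron 1. The promoter is shared with ERCC8, a DNA repair gene, whose TSS was 162 bp from the DMSO summit.

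NDUFAF4, which acts on the Q module, had 21 tags in DMSO (13 to 32.1; fold enrichment 7.25, rank 579), 10 bp from its only TSS. In trametinib it had a peak of 14 tags (7.65 to 23.5; 4.35, rank 3233) and another of 10 tags (4.8 to 18.4; 3.35, rank 5299), and no promoter peak in AMG510. The weaker trametinib peak had its summit 9 bp from that of DMSO, with a log2 ratio of −1.12 (interval −2.37 to 0.03). The stronger trametinib peak lay 338 bp away in intron 1, and no other gene started within 1 kb.

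NDUFAF5 and NDUFAF8 are partners that act on the core subunit NDUFS7, and both had promoter peaks in DMSO and AMG510. NDUFAF5 had 17 tags in DMSO (9.9 to 27.2; fold enrichment 5.63, rank 1820) and 15 in AMG510 (8.4 to 24.7; 5.67, rank 974). NDUFAF8 had 22 tags in DMSO (13.8 to 33.3; 5.89, rank 1451) and 15 in AMG510 (8.4 to 24.7; 4.36, rank 5474). Neither ratio differed from 0 beyond counting error, at −0.20 for NDUFAF5 (interval −1.30 to 0.89) and −0.57 for NDUFAF8 (−1.62 to 0.44). In DMSO the NDUFAF5 summit was 1 bp from a TSS and 130 bp from ESF1, a gene of ribosomal RNA processing. That of NDUFAF8 was 116 bp from its own TSS and 343 bp from TEPSIN. The AMG510 summit of NDUFAF5 had a canonical E-box 94 bp away and a noncanonical one 67 bp away.

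NDUFAF6, which is needed to build the module around the mitochondrially encoded ND1, had 2 peaks in DMSO and none under either drug. They held 13 tags (fold enrichment 4.96) and 11 tags (4.2), at 335 and 891 bp from an upstream TSS. The TSS of CCNE2, which encodes cyclin E2, was 506 and 50 bp from these summits, whereas the TSS of the canonical NDUFAF6 transcript lay 128817 bp downstream of the stronger peak. NDUFAF6 has no promoter peak when canonical starts alone are counted.

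Shared promoters were common among these genes. Of the 15 genes with a DMSO promoter peak, 10 had a peak that also lay within 1 kb of another protein-coding gene, against 22.4% of all genes with a DMSO promoter peak. For 4 of the 15 (NDUFS1, NDUFB1, NDUFC1 and NDUFA2), every DMSO peak was nearer to the other gene, against 9.85% of all genes. The 5 genes with an unshared peak were NDUFS7, NDUFB2, NDUFA6, NDUFAB1 and NDUFAF4. Of the 16 DMSO peaks, 10 lay within 200 bp of a TSS of the complex I gene and 7 lay upstream of it. Neither count has a share over all DMSO promoter peaks beside it, so this placement is not shown to be particular to these genes.

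**Figure D3:**
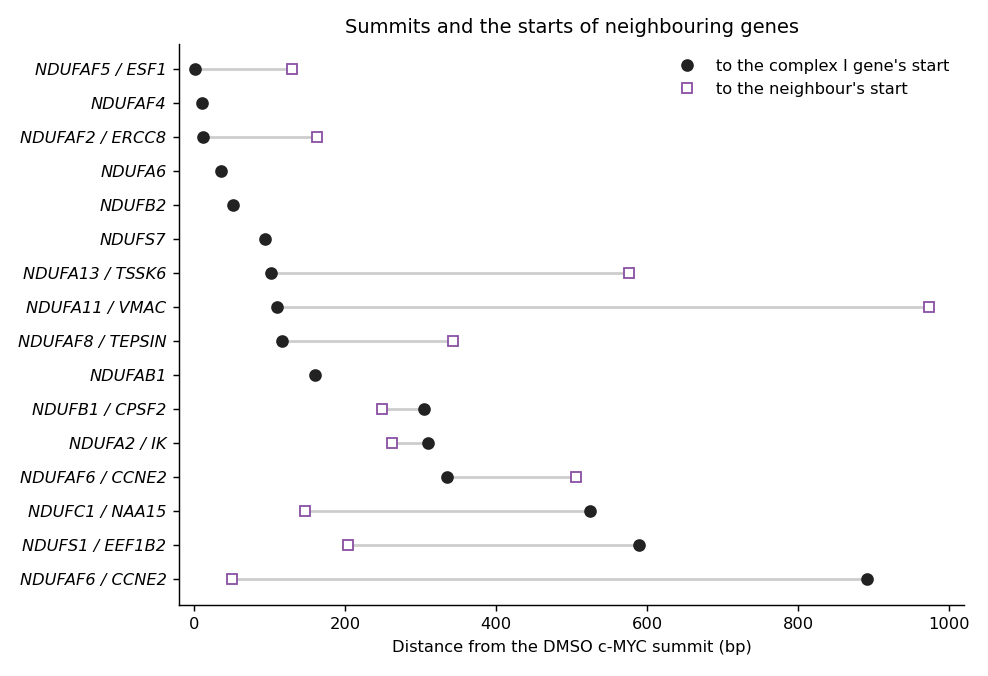
Distance in bp from each of the 16 DMSO c-MYC summits to the nearest TSS of the complex I gene (filled circles) and, where there is one within 1 kb, of the neighbouring gene (open squares). For 5 peaks the neighbour was nearer, 50 to 262 bp from the summit.

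The second comparison asked which DMSO promoter peaks were found again under each drug. Of the 15 genes, AMG510 showed a promoter peak at 8 and trametinib at 4, against 43.1% and 35.2% of all genes with a DMSO promoter peak. The 3 genes found in all c-MYC lists were NDUFS1, NDUFB2 and NDUFAF2, which is 20% of the 15, against 23.1% of all genes. The 6 found in DMSO alone were NDUFS7, NDUFA13, NDUFA2, NDUFA6, NDUFAB1 and NDUFAF6, which is 40%, against 44.8% of all genes. Peak by peak, 7 of the 16 DMSO peaks were overlapped by at least 1 bp in AMG510 and 4 in trametinib, against 33.1% and 27.7% of all DMSO promoter peaks. Retention of complex I genes was thus close to that of promoters at large, and with 15 genes a single gene is worth nearly 7 percentage points. When the same number of peaks was taken from each c-MYC list, 4 of 13 genes (30.8%) were found again in AMG510 and 4 (30.8%) in trametinib, against 39% and 41.7% of all genes. The AMG510 share then stood below that of all genes, where it had been above.

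Where peaks overlapped, the drug pileups were mostly lower. Per tag in calling, 6 of 7 DMSO peaks were lower in AMG510 and 4 of 4 in trametinib, against 89.1% and 85.4% of all overlapped DMSO promoter peaks, with median log2 ratios of −0.78 and −0.82. Over all overlapped DMSO promoter peaks the medians were −0.49 in AMG510 and −0.48 in trametinib. The interval lay below 0 for 2 member peaks under each drug, those of NDUFS1 and NDUFB2, against 18.3% of all overlapped DMSO promoter peaks in AMG510 and 18.6% in trametinib. These ratios hold only for peaks strong enough to be called in both lists, and each compares summits that were called separately. All of them, over members and over all peaks, lean low because tags were extended further in DMSO. How much of the difference this accounts for was not tested.

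**Figure D4:**
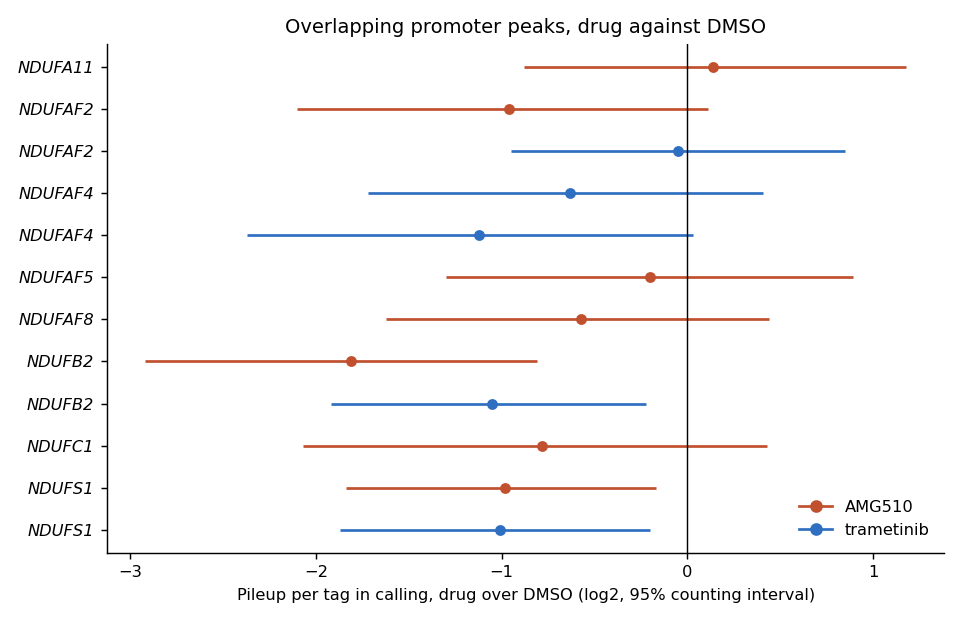
Log2 ratio of the pileup per tag in calling, drug over DMSO, with its exact 95% binomial interval, for each pair of overlapping promoter peaks (NDUFAF4 has 2 trametinib peaks). All values except NDUFA11 in AMG510 (0.14) lie below 0, and the intervals of NDUFS1 and NDUFB2 lie wholly below 0. The ratios are not corrected for the longer tag extension in DMSO, which lowers them. NDUFAF2 in trametinib (−0.05) and the upper end of the NDUFS1 interval in AMG510 (−0.17) lie near enough to 0 for this to matter.

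Few tags separated a peak that was called from one that was not. The 8 DMSO peaks of genes without an AMG510 promoter peak held 11 to 21 tags, and 8 to 10 tags over the same background would have been called in AMG510. For 4 of these 8, both of NDUFAF6 and those of NDUFA2 and NDUFA13, the counting interval of the DMSO pileup reached down to the number needed. The 12 DMSO peaks of genes without a trametinib promoter peak held 11 to 22 tags, 8 to 11 tags would have been called in trametinib, and for 8 of the 12 the interval reached the number needed. For those peaks, an absent call could not be told from counting error at this depth. The check takes in the counting error of the DMSO pileup only and not that of the drug library. It therefore does not show that the other absent calls lie beyond counting error.

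The heights of the peaks stood somewhat above those of other promoters in DMSO and trametinib and slightly below them in AMG510. The median fold enrichment of member peaks was 5.55 in DMSO, 4.45 in AMG510 and 6.25 in trametinib, over 16, 9 and 5 peaks. Over all promoter peaks it was 4.9, 4.64 and 4.71. Within 100 bp of the summit, a canonical E-box was found in 6 of the 16 DMSO peaks, against 16.9% of all DMSO promoter peaks, and in 5 of 9 AMG510 peaks and 2 of 5 trametinib peaks, against 14.4% and 17.3%. With the noncanonical E-box CACGCG counted as well, 10 of the 16 DMSO peaks had a match, against 36.9%. The 6 DMSO peaks with a canonical E-box were those of NDUFS1, NDUFS7, NDUFA11, NDUFAF2, NDUFAF4 and the stronger peak of NDUFAF6. In 3 of them, those of NDUFS1, NDUFA11 and NDUFAF4, it was within 50 bp, a count with no share over all DMSO promoter peaks beside it.

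The 31 genes without a promoter peak in any list were the larger share of the complex. They included the core subunits NDUFV1, NDUFV2, NDUFS3 and NDUFS8, the assembly factors NDUFAF1, NDUFAF3 and NDUFAF7, NDUFA4 and NDUFA4L2, and the supernumerary subunits NDUFA1, NDUFA3, NDUFA5, NDUFA8, NDUFA9, NDUFA10, NDUFA12, NDUFB3, NDUFB4, NDUFB5, NDUFB6, NDUFB7, NDUFB8, NDUFB9, NDUFB10, NDUFB11, NDUFC2, NDUFS4, NDUFS5, NDUFS6 and NDUFV3. For most of them no peak was near. Of the 32 genes without a DMSO promoter peak, 28 had their nearest DMSO summit over 10 kb away, and the median distance was 58994 bp. These distances have no value over all genes without a DMSO promoter peak beside them, so they are not shown to be particular to complex I genes. The gene just outside the limit was NDUFS6, an N module subunit, with a DMSO summit of 29 tags (fold enrichment 6.24) at 1693 bp and an AMG510 summit of 19 tags (4.72) at 1659 bp, both at the promoter of the mitochondrial ribosomal gene MRPL36. The gene just inside it, other than the second peak of NDUFAF6, was NDUFS1 at 589 bp.

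To ask whether complex I promoters carry sequences of their own, motifs were searched on both strands from 250 bp before to 50 bp after the canonical TSS. The canonical E-box CACGTG was found in 5 of 47 promoters (10.6%), against 8.76% of all protein-coding genes, and 4 of the 5 belonged to genes with a DMSO peak (NDUFA11, NDUFAF5, NDUFAF6 and NDUFS7, with NDUFA7 as the fifth). That is 26.7% of member promoters with a DMSO peak, against 13.3% of all genes with one, and 3.12% of those without, against 7.31%. The canonical TSS searched for NDUFAF6 is not the start that its DMSO peaks lie at. The noncanonical E-box CACGCG was found in 9 (19.1%, against 15.4%). Larger gaps were seen for motifs of other factors known at housekeeping and mitochondrial promoters. AAGATGG, of the kind bound by YY1, was found in 12 of 47 (25.5%, against 6.43%), CGCATGCG, of the kind bound by NRF1, in 6 (12.8%, against 2.83%), CCGGAAG, of the kind bound by ETS factors, in 10 (21.3%, against 14%) and AAGGTCA, of the kind bound by ERR nuclear receptors, in 4 (8.51%, against 2.87%). Genes with AAGATGG included NDUFS4, NDUFA9 and NDUFB8, which had no c-MYC promoter peak. It was present in 3 of 15 promoters with a DMSO peak and 9 of 32 without, against 7.85% and 5.97% among all genes. A match says only that the letters are there. The promoters with a DMSO peak had a median GC content of 62.7% and those without 59.2%, against 69% and 61.7% among all genes.

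**Figure D5:**
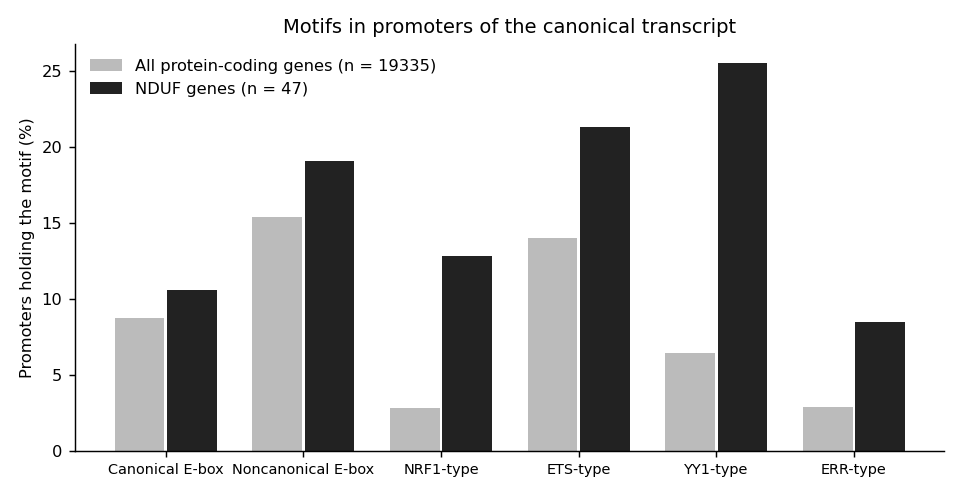
Percentage of 300 bp promoters that hold each motif (vertical axis) for the 47 NDUF genes and for 19335 protein-coding genes. The canonical and noncanonical E-boxes stand close to all genes (10.6% beside 8.76%, 19.1% beside 15.4%), and the YY1-type motif stands at 25.5% beside 6.43%.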

How the data were processed

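The study's methods and the labels give trimming with Trimmomatic 0.39, alignment to GRCh38 with BWA 0.7.17 and peak calling per library with MACS2 2.2.7.1. Each deposited list holds, for every peak, a score, a fold enrichment (a ratio) and the −log10 p-value and −log10 q-value, all as the authors' software wrote them. The methods do not say that IgG served as the control. Pileups and backgrounds were recovered from the fold enrichment and p-value, with a whole-number pileup for 100% of peaks in each list (relative error in the −log10 p-value under 1e-04), and tags from the genome-wide background, the shortest peak width and a genome size of 2700000000 bp. Genes came from GENCODE 44 and sequences from GRCh38, and positions in exons and introns refer to the canonical transcript. Coordinates are 1-based. Values were computed with Python, scipy and pandas, and linking, motif search and pileup recovery were tested on simulated data. Members and gene lists were chosen with earlier results of these data known. A member counted in the totals is not reported here by name. Full values are given for genes with a peak in at least 2 c-MYC lists and the 5 largest DMSO fold enrichments.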

Additional observations from a re-analysis of the deposited data

Results flagged for a closer look

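Peaks inside the complex I genes but away from their promoters were used in no comparison above, and in DMSO and AMG510 there were more of them than in IgG. There were 4 in DMSO c-MYC, 4 in AMG510, 1 in trametinib and 1 in IgG, each in a different gene of its list. The share of complex I genes with such a peak was 8.51%, 8.51%, 2.13% and 2.13%, against 9.53%, 13%, 6.36% and 5.39% of all protein-coding genes, so the complex I genes did not exceed all genes in any list. In DMSO they held 8 tags at NDUFA10, 16 at NDUFA2, 13 in intron 2 of NDUFAF2 and 15 in intron 2 of NDUFS4. In AMG510 they held 12 tags at NDUFA10, 14 at NDUFA2, 11 at NDUFA9 and 11 in intron 3 of NDUFAF2. Among these, the NDUFA2 peak overlapped between DMSO and AMG510, and no other overlapped a peak of another list. The NDUFA2 peaks and the NDUFA10 peak in DMSO lay within the full annotated span of the gene but past the end of its canonical transcript. The IgG peak, at NDUFS3, lay upstream of the canonical transcript.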

How the results depend on the processing

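Of 46 recomputed counts over 9 results, 37 stayed within 1.5 times the reported count and 9 did not, of which 8 were lower. With a fold enrichment above 5, the 9 genes with an AMG510 promoter peak became 3. The 8 of 15 DMSO genes shared with AMG510 became 2 of 11 (18.2%), while the share over all genes with a DMSO promoter peak went from 43.1% to 29.1%. Taking an equal number of peaks from each c-MYC list left 4 shared genes of 13 (30.8%, against 39% of all genes). Counting a peak only for the gene with the nearest TSS, an alternative chosen after seeing the data, left 5 AMG510 genes. All 5 were shared with DMSO, of 11 DMSO genes (45.5%, against 41.8% of all genes). Requiring 50% of the DMSO peak to be covered left 4 of 7 overlapped peaks for AMG510 and 2 of 4 for trametinib. These counts have no share over all DMSO promoter peaks beside them. Promoter peaks at large were narrower under the drugs, with a median width of 233 bp in AMG510 and 238 bp in trametinib, against 291 bp in DMSO. The 6 DMSO peaks with CACGTG became 3 within 50 bp, again without a share over all peaks beside it, and 10 with CACGCG added. Windows of 500 bp and 2 kb, canonical starts only and any base of the peak within 1 kb moved no count past 1.5 times. No paired analysis was possible because no group held more than 1 library, and no replicate could be left out. Depth limits the results, since most member peaks held 10 to 23 tags.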

Other observations

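The core subunits of the membrane arm are encoded in mitochondrial DNA, and the lists held mitochondrial peaks in the IgG library as well as in the c-MYC libraries. There were 7 such peaks in IgG, 6 in DMSO c-MYC, 5 in AMG510 and 6 in trametinib. Their fold enrichment was 1.34 to 2.42 in IgG, 1.28 to 2.76 in DMSO, 1.33 to 2.92 in AMG510 and 1.34 to 2.63 in trametinib, with 270 to 286, 295 to 348, 261 to 313 and 282 to 325 tags at the summit. Peaks covered all 525 bp of MT-ND6 and parts of MT-ND1 and MT-ND5 in each of the 4 lists. MT-ND4 and MT-ND4L were not touched in any list. Enrichment of c-MYC over IgG at these genes was not tested.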
